A study of Mus musculus with 9 samples.

Results

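The cadherin and protocadherin genes are adhesion genes related to Celsr3, the atypical cadherin that is mutated in part of the mice studied here. Members were all genes of the deposited expression table whose symbol is Cdh followed by a number (Cdh5, the cadherin of blood vessel walls, was kept out), begins with Pcdh, or is Fat1 to Fat4, Dchs1 or Dchs2. This gave 53 of the 14670 genes listed. Each of the 53 passed the filter on low values, a mean over all libraries of 0.5 CPM (counts scaled to the depth of a library) or more.

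RNA from the cerebral cortex of mouse embryos at embryonic day (E) 16.5 was sequenced in 9 libraries. Control embryos (Control, +/+) gave 3 libraries, mutants of the Wnt receptor gene Fzd3 (Fzd3 -/-) gave 3, numbered 1 to 3 like the controls, and mutants of Celsr3 (Celsr3 -/-) gave 3, numbered 1, 2 and 4. All mice were on a mixed C57Bl/6 and CD1 background. The labels call the controls wild type, while the methods of the study include heterozygous littermates among controls. The labels name Trizol for RNA extraction and the methods an RNeasy kit. The mutant Fzd3 allele is described as lacking exon 3. The methods give cortical tissue from 3 of each genotype, and the labels do not say whether each library is a separate embryo, so p-values measure the spread between these samples.

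Classical cadherins bind cadherins of the same type on a neighbouring cell and hold the membrane to actin through catenins. Type I and type II classical cadherins and the delta protocadherins are expressed in different combinations by cortical layers, areas and neuron classes, while the clustered protocadherins are chosen promoter by promoter in each neuron and give it a surface identity. The Fat and Dachsous giants bind each other between neighbouring cells and act in planar polarity, the process in which Fzd3 and Celsr3 also act.

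Depth was between 39857305 and 69600589 reads on the listed genes, taken from the step between the values of a library, and 3 reads were worth 0.0427 to 0.0752 CPM in the different libraries, which covers counting error only. The lowest value of any member in any library was 0.816 CPM, above that level. Differences come from a limma fit of all 9 libraries on log2(CPM + 0.5), where fold changes of genes with low values come out too small. A gene passed the threshold when its Benjamini-Hochberg adjusted p over all 14670 genes was under 0.05.

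The tissue label was checked against marker lists, and 1 library stood apart. All 9 dorsal cortex markers used here were listed, with Neurod6 the most abundant, and they summed to 2305, 2355 and 2145.5 CPM in controls, 1802, 1851 and 1870.1 CPM in Fzd3 mutants and 2286, 2286 and 2288 CPM in Celsr3 mutants. Of the choroid plexus markers 0 of 5 were listed, and every listed marker of the other lists was above 0 in all 9 libraries. The 5 listed markers of meninges and fibroblasts, led by Col3a1, summed to 175 CPM in Celsr3 mutant replicate 4 and to between 10.5 and 21.0 CPM in the other 8 libraries. Col3a1 itself stood at 87.6 CPM in that library, against 6.86 and 4.95 CPM in Celsr3 mutant replicates 1 and 2. Cdh11, a type II cadherin that is also known from mesenchymal cells, was at 83.1 CPM there, between the 84.7 and 81.7 CPM of replicates 1 and 2. Counts of members are given with and without this library.

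**Figure D1:**
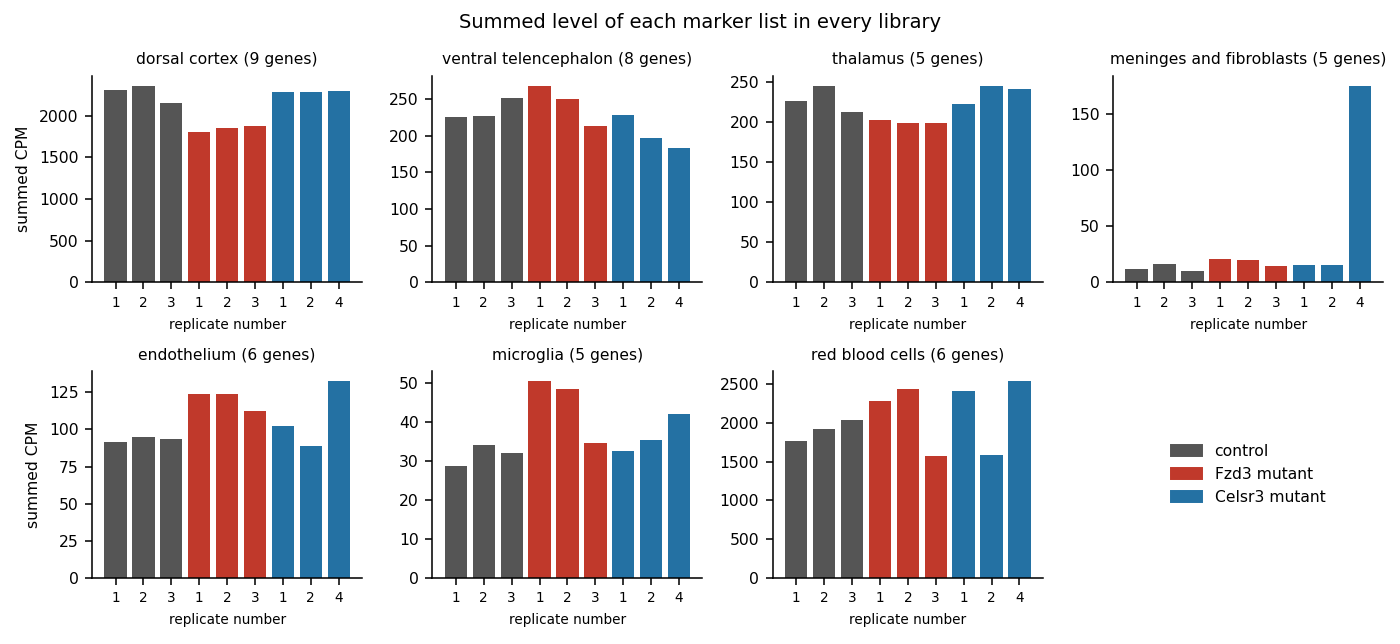
Summed CPM (vertical axis, from 0) of each marker list in each of the 9 libraries (bars, replicate number below, colour by genotype). The meninges and fibroblast list stands at 175 CPM in Celsr3 mutant replicate 4 and at 21.0 CPM or less in the other libraries.

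The mutated genes were measured first. Celsr3 stood at 196, 243 and 214 CPM in controls, at 253, 213 and 255 CPM in Fzd3 mutants and at 122, 139 and 118 CPM in Celsr3 mutants. All 3 Celsr3 mutant libraries lay below all other libraries, with a fold of 0.583 to control (log2 difference -0.78 ± 0.0910 SE, limma adjusted p = 0.00180). The adjusted p was 0.0699 with a replicate block. It was 0.512 in the ordinary test per gene, fitted to only the 2 groups compared with each gene's own variance. Fzd3 stood at 58.0, 67.7 and 46.9 CPM in controls and at 46.5, 39.8 and 59.6 CPM in Fzd3 mutants. These ranges overlapped, and the difference of -0.24 did not pass (limma adjusted p = 0.240, or 0.0457 without Fzd3 mutant replicate 3). Since the table has 1 value per gene, it does not check an allele that lacks 1 exon. Of the other Celsr genes, Celsr1 was lower in Fzd3 mutants (98.8, 87.5 and 111 CPM) than in controls (137, 193 and 141 CPM), with no overlap and a log2 difference of -0.65 ± 0.122 SE (limma adjusted p = 0.00271, or 0.0976 in the ordinary test per gene). Celsr2 overlapped between these groups, with means of 199 ± 23.9 and 227 ± 41.4 CPM (SD, n = 3 each) and a difference of -0.18 (limma adjusted p = 0.263).

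In Fzd3 mutants 15 of the 53 members passed the threshold, 28.3%, a share close to the 29.8% of all listed genes. The members that passed were mostly higher: 12 rose, 22.6% of members against 15.0% of all genes, and 3 fell, 5.7% against 14.8%. Those that rose were the type II cadherins Cdh6, Cdh9, Cdh10, Cdh12 and Cdh18, the clustered protocadherin rows Pcdha2, Pcdhga9, Pcdhb2, Pcdhb14 and Pcdhb21, and the delta-1 protocadherins Pcdh7 and Pcdh9. Those that fell were Cdh2, Cdh13 and Cdh24. The median log2 difference over the 53 was 0.17, beside -0.00056 over all genes. In bulk tissue, fewer cells that express a gene and less of its RNA per cell cannot be told apart. Without Fzd3 mutant replicate 1 the count was 9, with Cdh10, Cdh18, Cdh2, Pcdhb14, Pcdhb21 and Pcdhga9 lost, while that of all genes went from 4366 to 2958 of 14670. In the ordinary test per gene Cdh2, Cdh9, Cdh10, Pcdh9, Pcdhb14, Pcdhb21 and Pcdhga9 were lost (adjusted p between 0.0512 and 0.132), and with a replicate block Cdh18, Pcdhb14 and Pcdhga9 (0.0576 to 0.0736). The ordinary test gained Pcdh12 and Pcdhb3 and so gave 10 members, beside 1895 of all genes. With the block there were 12 members, beside 3629 of all genes.

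In Celsr3 mutants 0 of the 53 members passed in the limma fit, where 0.307% of all listed genes did. At an unadjusted p under 0.05 there were 10 members (18.9%), beside 800 of all genes (5.45%). This count was not stable, at 5 without control replicate 3, 6 without Celsr3 mutant replicate 1, 7 without Celsr3 mutant replicate 4 and 15 without control replicate 2. The limma fit with weights from reads, the ordinary test per gene and the replicate block also gave 0 members, with 8, 4 and 4 at an unadjusted p under 0.05. The matching counts of all genes in these fits are not given here, so a change in the share of members was not tested. The smallest adjusted p belonged to Cdh6 (log2 difference 0.50, limma adjusted p = 0.422), and without Celsr3 mutant replicate 2 it was 0.0482, the 1 member that then passed. Both mutants were compared with the same 3 control libraries, so their values are given side by side and not as independent results.

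**Figure D2:**
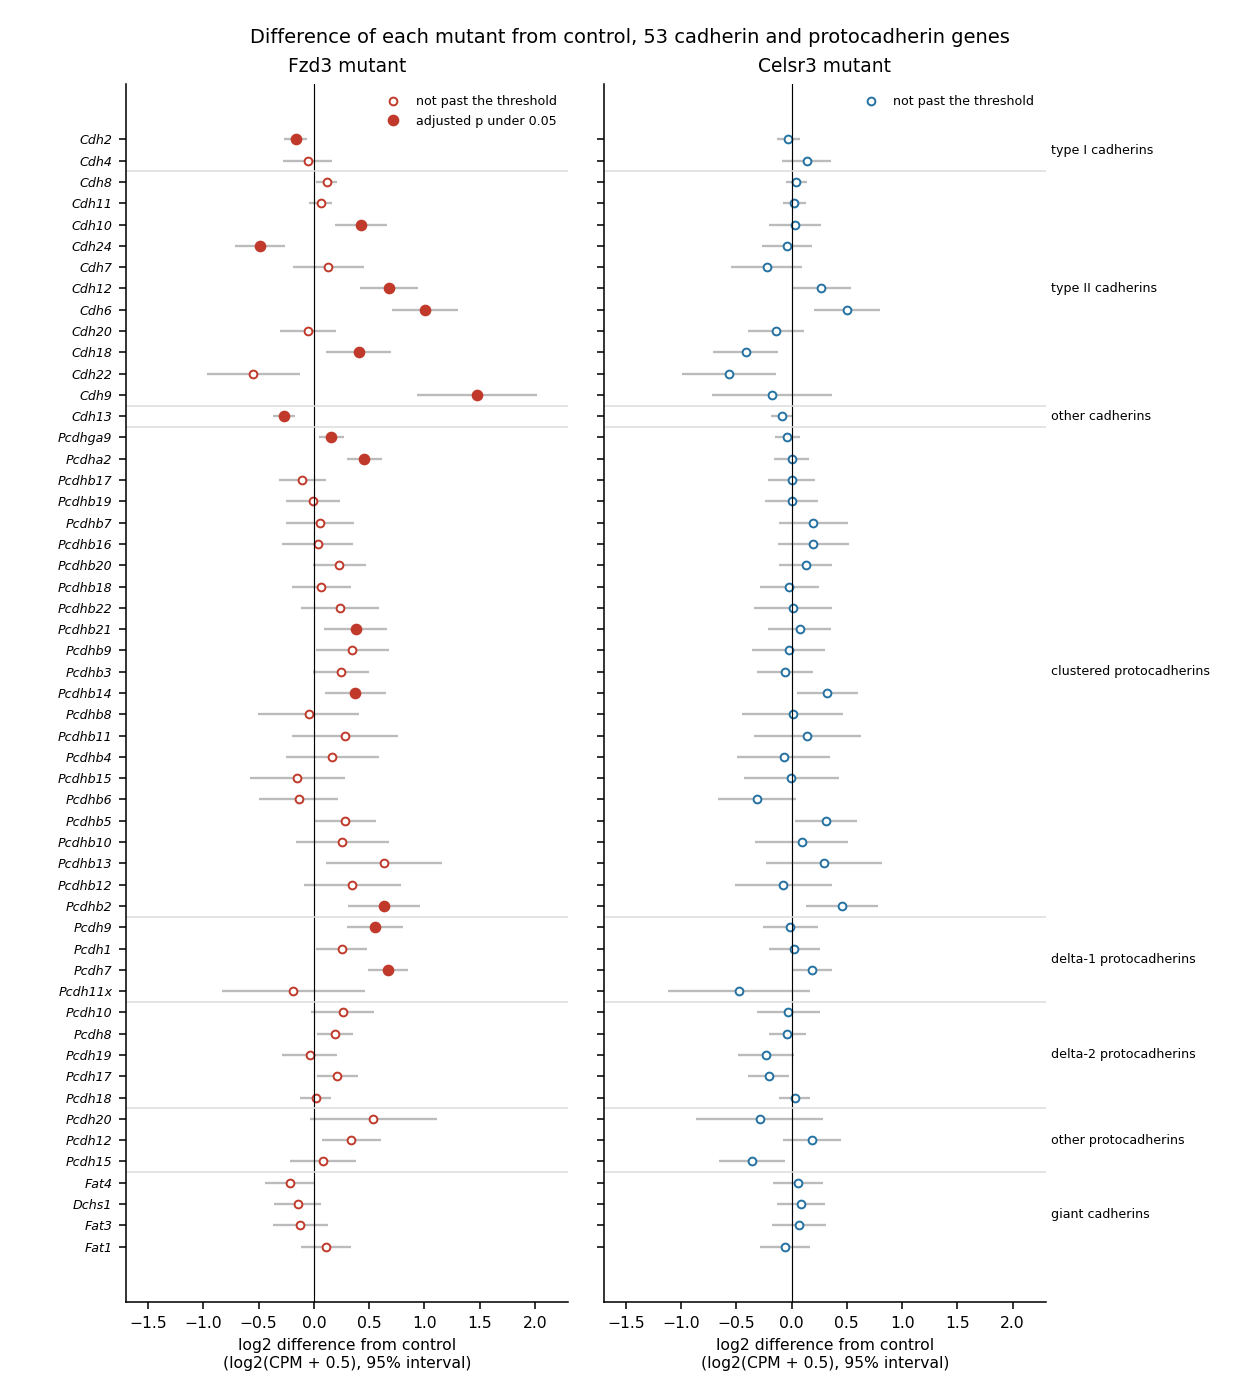
Log2 difference from control (horizontal axis, points, with 95% intervals as grey lines) of the 53 members in Fzd3 mutants (left) and Celsr3 mutants (right), ordered by class and by control level. Filled points passed the threshold, 15 on the left and 0 on the right, and the highest on the left is Cdh9 at 1.47.

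Levels between genes were compared per kilobase of annotated exon. Cdh2, the N-cadherin of neural progenitors and of their apical junctions, led the members in controls with 85.4 ± 5.30 CPM per kb (SD, n = 3), above 96.6% of all matched genes. The giant cadherins Dchs1 (19.7 ± 2.67 CPM per kb) and Fat4 (14.2 ± 1.68 CPM per kb) followed, with Cdh13 (14.1 ± 0.727 CPM per kb) and Cdh4 (13.4 ± 0.578 CPM per kb), and these last 3 did not differ beyond their spread. Pcdh8 (10.8 ± 0.838 CPM per kb) and Cdh8 (10.7 ± 0.281 CPM per kb) led the delta-2 protocadherins and the type II cadherins. The median member lay at 1.36 CPM per kb and the lowest, Pcdh15, at 0.0910 CPM per kb, while the median of all matched genes was 5.99 CPM per kb. Among the 51 members with a usable length, 23 were under 1 CPM per kb. Pcdha2 and Pcdhga9 have no value per length here, for the reason given with the clustered genes.

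**Figure D3:**
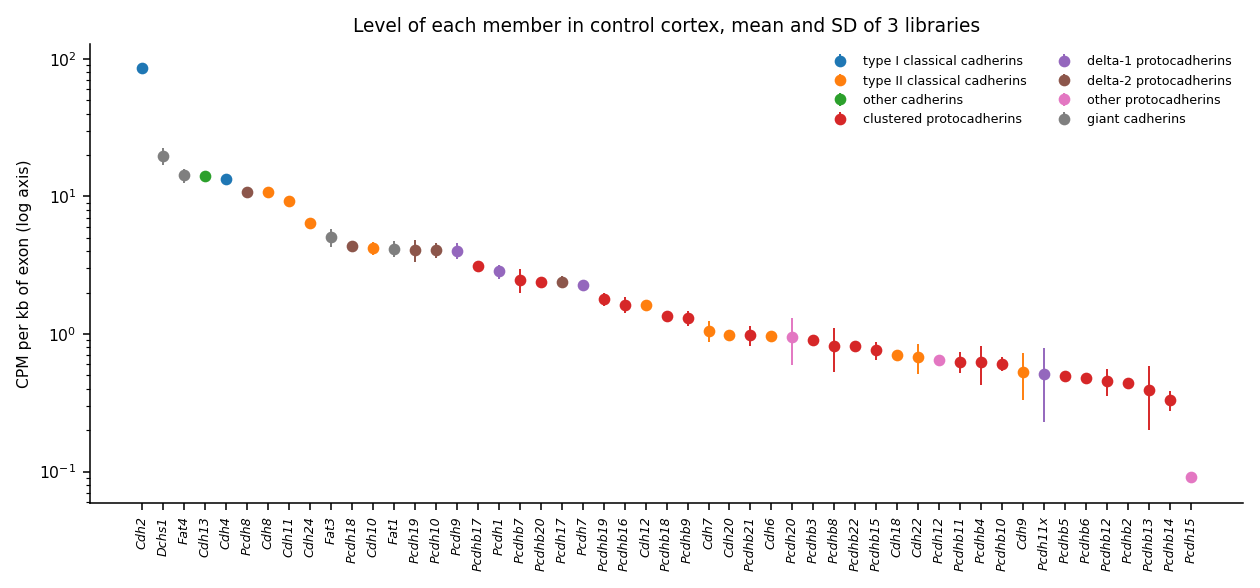
CPM per kb of exon (vertical log axis) of 51 members in control cortex, as mean (points) and SD (lines) of 3 libraries, in falling order and coloured by class. Cdh2 stands alone at 85.4 CPM per kb, and Pcdh15 is lowest at 0.0910 CPM per kb.

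The type II classical cadherins, whose members mark subsets of neurons and bind each other in selective pairs, held the largest differences. Of the 11 listed, 5 rose (45.5%, beside 15.0% of all genes), 1 fell (9.1%, beside 14.8%) and 5 did not pass in Fzd3 mutants. The 5 that rose are neighbours on chromosome 15, and they were all the type II cadherins listed there: Cdh6, Cdh9, Cdh10, Cdh12 and Cdh18 lie in this order within 10.4 Mb (GRCm38), and 1 other listed gene, Gm5803, lies in the same stretch (log2 difference -0.29, limma adjusted p = 0.0525). This stretch was singled out after its values were seen. The RefSeq sequence before the start of these genes is shown because they moved together in Fzd3 mutants. The windows are the 250 bases before the RefSeq start on the strand of the gene, ending earlier where GENCODE places an exon, on GRCm38.p6: chr15:13173676-13173925 (- strand) for Cdh6, chr15:16728665-16728755 (+ strand) for Cdh9, chr15:18820079-18820328 (+ strand) for Cdh10, chr15:21111202-21111333 (+ strand) for Cdh12 and chr15:23036213-23036454 (+ strand) for Cdh18. Those of Cdh6 and Cdh9 lie outside the annotated gene, and those of Cdh10, Cdh12 and Cdh18 lie in introns of longer transcripts. All 5 were matched by symbol. Capitals mark each match to the E-box letters CANNTG.
Cdh6: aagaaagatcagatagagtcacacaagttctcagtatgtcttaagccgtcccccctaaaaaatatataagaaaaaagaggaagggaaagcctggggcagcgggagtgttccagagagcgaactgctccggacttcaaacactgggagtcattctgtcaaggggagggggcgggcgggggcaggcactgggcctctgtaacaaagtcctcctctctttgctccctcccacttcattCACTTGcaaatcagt
Cdh9: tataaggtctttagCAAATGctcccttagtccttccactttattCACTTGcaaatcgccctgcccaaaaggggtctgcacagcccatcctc
Cdh10: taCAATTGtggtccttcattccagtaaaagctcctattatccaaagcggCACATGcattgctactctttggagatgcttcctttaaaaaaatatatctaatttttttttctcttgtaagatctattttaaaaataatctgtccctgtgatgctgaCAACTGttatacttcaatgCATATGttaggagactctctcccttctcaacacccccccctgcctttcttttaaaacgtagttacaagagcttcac
Cdh12: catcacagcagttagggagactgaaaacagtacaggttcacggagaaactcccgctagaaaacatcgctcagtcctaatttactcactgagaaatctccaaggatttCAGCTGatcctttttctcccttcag
Cdh18: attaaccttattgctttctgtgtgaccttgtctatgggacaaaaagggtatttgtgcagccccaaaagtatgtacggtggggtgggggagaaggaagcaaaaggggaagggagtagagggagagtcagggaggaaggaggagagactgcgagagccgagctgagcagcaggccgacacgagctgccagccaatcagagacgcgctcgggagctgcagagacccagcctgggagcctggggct

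Cdh6 and Cdh9, the pair with the largest rise, share a run of 15 bases, attcacttgcaaatc, which begins 18 bases before the RefSeq start of Cdh6 and 209 bases before that of Cdh9. On either strand this run was found in 2 of the 32851 RefSeq promoter windows. They are the 2 it was taken from, which hold it by construction. Whether the run has a part in the rise was not tested. The longest run shared by any other pair of these 5 genes was 11 bases, between Cdh6 and Cdh10, and 34 windows held it. CANNTG was found 1 time before Cdh6, 2 times before Cdh9, 4 times before Cdh10, 1 time before Cdh12 and 0 times before Cdh18. On either strand 66.2% of all promoters held it in a window of 250 bases and 33.6% in a window placed and sized like that of Cdh9. The GC box letters GGGCGG were found 2 times before Cdh6, overlapping each other in part, and 32.7% of promoters held them. The CCAAT box letters CCAAT were found 1 time, before Cdh18, where 33.2% of promoters held them, and TATAAA was found before none of the 5 (12.4% of promoters in 250 bases). A match is a description of these letters, not a binding site. The search was made after the values were seen.

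Cdh9 stood at 2.1001, 1.08 and 2.43 CPM in controls, at 6.22, 6.69 and 4.85 CPM in Fzd3 mutants and at 1.64, 2.07 and 1.03 CPM in Celsr3 mutants. All 3 Fzd3 mutant libraries were above all 6 others, whose values overlapped. The log2 difference from control was 1.47 ± 0.248 SE in Fzd3 mutants, a fold of 2.78 on that scale (limma adjusted p = 0.00140), and -0.18 in Celsr3 mutants. Cdh6 stood at 8.82, 9.36 and 8.08 CPM in controls, at 18.5, 16.2 and 19.5 CPM in Fzd3 mutants and at 15.4, 9.92 and 12.999 CPM in Celsr3 mutants. It was highest in Fzd3 mutants, and every Celsr3 mutant library was also above every control. Its differences from control were 1.00 ± 0.138 SE in Fzd3 mutants (fold 2.01, limma adjusted p = 0.000427) and 0.50 in Celsr3 mutants, which did not pass. With the Celsr3 mutant replicate 2 left out, the library at 9.92 CPM, the latter was 0.67 with a limma adjusted p of 0.0482.

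Cdh12 stood at 10.96, 9.44 and 10.1 CPM in controls, at 17.8, 15.1 and 16.9 CPM in Fzd3 mutants and at 13.99, 13.4 and 10.1 CPM in Celsr3 mutants. Fzd3 mutants did not overlap with either group, and the Celsr3 mutant libraries reached down into the control range. The difference was 0.68 ± 0.121 SE in Fzd3 mutants (fold 1.60, limma adjusted p = 0.00188) and 0.27 in Celsr3 mutants (limma adjusted p = 0.909). Cdh10, the most abundant of the 5 in CPM per kb (4.19 ± 0.466, SD, n = 3 controls), stood at 45.1, 36.7 and 44.6 CPM in controls, at 58.5, 56.2 and 54.8 CPM in Fzd3 mutants and at 51.9, 38.8 and 39.4 CPM in Celsr3 mutants. Again all Fzd3 mutant libraries were above the others, and the other groups overlapped. The difference in Fzd3 mutants was 0.42 ± 0.108 SE (fold 1.34, limma adjusted p = 0.0130), and this call was lost without control replicate 2 (limma adjusted p = 0.0516) or Fzd3 mutant replicate 1 (0.0513).

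Cdh18 moved apart in the mutants. It stood at 3.43, 3.04 and 3.16 CPM in controls, at 4.46, 4.58 and 4.18 CPM in Fzd3 mutants and at 2.82, 2.123 and 1.96 CPM in Celsr3 mutants. The 3 groups did not overlap, Fzd3 mutants being above and Celsr3 mutants below the controls. The difference was 0.40 ± 0.133 SE in Fzd3 mutants (limma adjusted p = 0.0407) and -0.41 ± 0.133 SE in Celsr3 mutants (limma adjusted p = 0.652). The former was lost when any 1 of the 3 control libraries, of the 3 Fzd3 mutant libraries or Celsr3 mutant replicate 2 was left out, with limma adjusted p between 0.0515 and 0.115. The direct test between the mutants gave 0.82 ± 0.133 SE (limma adjusted p = 0.00130) and passed without each library in turn, at 0.00785 or less.

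Cdh24 was the type II cadherin that fell in Fzd3 mutants. It stood at 21.4, 24.5 and 21.7 CPM in controls, at 15.2, 16.996 and 15.5 CPM in Fzd3 mutants and at 18.7, 22.4 and 25.1 CPM in Celsr3 mutants. The Fzd3 mutants lay below all other libraries, at a difference of -0.49 ± 0.102 SE from control (fold 0.712, limma adjusted p = 0.00470). Cdh22 had a difference of similar size in both mutants, -0.55 in Fzd3 mutants (limma adjusted p = 0.0515) and -0.57 in Celsr3 mutants (limma adjusted p = 0.718), at levels of 1.11 to 3.19 CPM. It passed in Fzd3 mutants without control replicate 2 (limma adjusted p = 0.0435) or Celsr3 mutant replicate 4 (0.0367), and with 1 CPM in place of 0.5 CPM added before the log (0.0480). Cdh8, known from early patterning of cortical areas and the type II cadherin with the highest level per length, stood at 85.4, 81.7 and 81.6 CPM in controls, at 90.8, 89.8 and 89.1 CPM in Fzd3 mutants and at 87.3, 87.3 and 81.7 CPM in Celsr3 mutants. Its Fzd3 mutant values were all above the controls by a small margin, with a difference of 0.12 (limma adjusted p = 0.0612, or 0.0338 with all libraries scaled to the same total). Cdh7, Cdh11 and Cdh20 had differences between -0.06 and 0.13 in Fzd3 mutants and overlapped with controls.

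Of the type I cadherins, Cdh2 and Cdh4 were listed. Cdh2 stood at 694, 729 and 644 CPM in controls, at 621, 607 and 613 CPM in Fzd3 mutants and at 679, 689 and 654 CPM in Celsr3 mutants. The Fzd3 mutant libraries were close together and below all others. The difference from control was -0.16 ± 0.0467 SE (fold 0.892, limma adjusted p = 0.0218). Without control replicate 1 or 2, or without Fzd3 mutant replicate 1 or 2, this call was lost, at limma adjusted p between 0.0517 and 0.0813. Between the mutants the difference was -0.13 (limma adjusted p = 0.0499), and it passed without control replicate 2 or 3 but was lost without each of the other 7 libraries, at 0.0609 to 0.152. Cdh4, the retinal cadherin, had means of 97.5 ± 4.196, 94.2 ± 10.96 and 108 ± 16.6 CPM in controls, Fzd3 and Celsr3 mutants (SD, n = 3 each), and the groups overlapped.

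Cdh13, a cadherin anchored in the membrane by a lipid and without an intracellular part, was also lower in Fzd3 mutants. It stood at 159, 166 and 150.04 CPM in controls, at 135, 127 and 131 CPM in Fzd3 mutants and at 146, 151 and 149.9 CPM in Celsr3 mutants. Fzd3 mutants were below all other libraries, and the lowest control lay within the Celsr3 mutant range. The difference was -0.27 ± 0.0450 SE in Fzd3 mutants (fold 0.830, limma adjusted p = 0.00135) and -0.09 in Celsr3 mutants (limma adjusted p = 0.952). The call in Fzd3 mutants held without each library in turn.

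The clustered protocadherins lie on chromosome 18 in the alpha, beta and gamma clusters. The table held 21 rows of the beta cluster, which has a separate gene for each protein, and 1 row each of the alpha and gamma clusters, Pcdha2 and Pcdhga9. The alpha and the gamma genes each join a variable first exon to constant exons that all genes of the cluster share. Whether the 2 rows hold the reads of 1 gene or of the whole cluster is not given in the sources used here, so they are called by their symbols and have no level per length. Beta genes resemble each other in sequence, and reads shared between them could have been split or assigned by the authors' counting, so single beta values are uncertain.

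Pcdha2 stood at 121, 107 and 116 CPM in controls, at 167, 155 and 149 CPM in Fzd3 mutants and at 126, 115 and 103 CPM in Celsr3 mutants. Every Fzd3 mutant library was above every other library, and Celsr3 mutants overlapped with controls. The difference was 0.46 ± 0.0731 SE in Fzd3 mutants (fold 1.37, limma adjusted p = 0.00104) and 0.00 in Celsr3 mutants. Pcdhga9 stood at 392.3, 412 and 415 CPM in controls, at 482, 447 and 433 CPM in Fzd3 mutants and at 414, 402 and 373 CPM in Celsr3 mutants. It had the same order with a smaller gap, at 0.16 ± 0.0519 SE in Fzd3 mutants (fold 1.12, limma adjusted p = 0.0402). That call was lost without any 1 control library, Fzd3 mutant replicate 1 or 2, or Celsr3 mutant replicate 2, at limma adjusted p between 0.0505 and 0.159.

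In the beta cluster 3 of 21 genes rose in Fzd3 mutants, 14.3%, a share close to the 15.0% of all genes, and 18 did not pass. Pcdhb3, which is among these 18, passed in the ordinary test per gene (0.24, adjusted p = 0.0475). Pcdhb2 stood at 1.35, 1.17 and 1.18 CPM in controls, at 2.58, 1.94 and 2.08 CPM in Fzd3 mutants and at 2.19, 1.65 and 1.82 CPM in Celsr3 mutants. Both mutants were above all controls, and they overlapped with each other. The differences were 0.64 ± 0.148 SE in Fzd3 mutants (limma adjusted p = 0.00838) and 0.46 in Celsr3 mutants (limma adjusted p = 0.664). Pcdhb14 stood at 2.74, 3.40 and 2.46 CPM in controls, at 4.09, 3.80 and 3.61 CPM in Fzd3 mutants and at 3.69, 3.77 and 3.57 CPM in Celsr3 mutants. Its mutant groups also lay above the controls and overlapped with each other (0.37 in Fzd3 mutants, limma adjusted p = 0.0448). Pcdhb21 stood at 5.45, 4.35 and 4.04 CPM in controls, at 6.39, 6.28 and 5.65 CPM in Fzd3 mutants and at 5.56, 4.72 and 4.33 CPM in Celsr3 mutants. Fzd3 mutants were above all controls (0.38, limma adjusted p = 0.0493), and Celsr3 mutants overlapped with them. Between the mutants the difference of 0.30 did not pass (limma adjusted p = 0.103).

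The calls of Pcdhb14 and Pcdhb21 were not stable. With all libraries kept, they were lost with only the 2 groups in the fit (adjusted p = 0.0764 and 0.0566), with weights from reads (0.0674 and 0.0614) and in the ordinary test per gene (0.131 and 0.132), Pcdhb14 also with a replicate block (0.0736) and Pcdhb21 with a smaller added value of 0.1 CPM (0.0504). Pcdhb14 kept its call only when control replicate 2 was left out and lost it without each other library, at limma adjusted p between 0.0546 and 0.136. Pcdhb21 lost it without control replicate 2 or 3, any Fzd3 mutant library or Celsr3 mutant replicate 2, at 0.0515 to 0.141. Pcdhb13, at 1.04, 2.27 and 1.05 CPM in controls and 2.62, 2.44 and 2.20 CPM in Fzd3 mutants, passed only without control replicate 2 (limma adjusted p = 0.00998, and 0.0667 with it). Pcdhb17, the beta gene with the highest level per length, stood at 14.1, 14.5 and 14.8 CPM in controls, at 13.4, 13.2 and 13.5 CPM in Fzd3 mutants and at 16.3, 12.2 and 15.2 CPM in Celsr3 mutants, with a difference of -0.11 in Fzd3 mutants (limma adjusted p = 0.444). The 21 beta genes together summed to 99.5 ± 3.36 CPM in controls, 110.0 ± 5.66 CPM in Fzd3 mutants and 105.7 ± 14.5 CPM in Celsr3 mutants (SD, n = 3 each). Among Celsr3 mutants replicate 1 was highest with 122 CPM and replicate 2 lowest with 93.2 CPM, a spread that covers the sums of all control and Fzd3 mutant libraries.

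The delta-1 protocadherins, which have long extracellular parts and a conserved site for a phosphatase inside the cell, gave 2 of 4 genes higher in Fzd3 mutants, where 15.0% of all genes were. Pcdh7 stood at 25.9, 24.6 and 21.9 CPM in controls, at 41.3, 38.2 and 36.7 CPM in Fzd3 mutants and at 30.2, 27.0 and 25.3 CPM in Celsr3 mutants. The Fzd3 mutants were clear of all other libraries. The difference of 0.67 ± 0.0828 SE (fold 1.59) had the smallest adjusted p of the members (limma adjusted p = 0.000217), and in Celsr3 mutants it was 0.18 (limma adjusted p = 0.911). Pcdh9, the delta-1 gene with the highest level per length, stood at 25.2, 31.6 and 25.4 CPM in controls, at 40.3, 39.6 and 40.5 CPM in Fzd3 mutants and at 22.7, 31.8 and 27.4 CPM in Celsr3 mutants. Fzd3 mutants lay close together and above the rest, with a difference of 0.55 ± 0.115 SE (fold 1.47, limma adjusted p = 0.00456). Pcdh1, at 0.25 in Fzd3 mutants (limma adjusted p = 0.0918), passed without control replicate 2 (0.0400) or Fzd3 mutant replicate 3 (0.0427). Pcdh11x, on the X chromosome, was at 11.7 CPM in control replicate 3 and between 3.76 and 7.48 CPM in the other 8 libraries.

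None of the 5 delta-2 protocadherins passed against control in the limma fit of all libraries. Of all genes 29.8% passed in Fzd3 mutants and 0.307% in Celsr3 mutants. The unadjusted p was under 0.05 for 2 of the 5 in Fzd3 mutants, where it was for 6067 of all 14670 genes, and for 1 in Celsr3 mutants (800 of all genes). Pcdh17 and Pcdh8, both known from axons and synapses of forebrain neurons, passed between the mutants. Pcdh17 stood at 29.3, 29.8 and 34.5 CPM in controls, at 37.1, 33.9 and 37.3 CPM in Fzd3 mutants and at 26.2, 29.9 and 24.8 CPM in Celsr3 mutants. The controls lay between the mutants and overlapped with each. The mutants differed by 0.42 ± 0.0839 SE (limma adjusted p = 0.00406), with 0.21 for Fzd3 mutants and -0.21 for Celsr3 mutants against control, and Pcdh17 passed in Fzd3 mutants without control replicate 3 (limma adjusted p = 0.0275). Pcdh8 stood at 46.7, 46.6 and 53.2 CPM in controls, at 59.6, 57.1 and 50.8 CPM in Fzd3 mutants and at 50.7, 47.5 and 44.4 CPM in Celsr3 mutants. The lowest Fzd3 mutant was barely above the highest Celsr3 mutant. The mutants differed by 0.23 (limma adjusted p = 0.0424), lost without control replicate 1, Fzd3 mutant replicate 1 or 2, or Celsr3 mutant replicate 2 or 4, at 0.0526 to 0.155. Against control, Pcdh8 passed in Fzd3 mutants without control replicate 3 (limma adjusted p = 0.0319) or Fzd3 mutant replicate 3 (0.0279). Pcdh10 had differences of 0.26 and -0.03 in Fzd3 and Celsr3 mutants, and it passed in Fzd3 mutants without Celsr3 mutant replicate 1 (limma adjusted p = 0.0483). Pcdh18 and Pcdh19 had overlapping groups throughout.

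Of the other protocadherins, Pcdh15 and Pcdh20 also passed between the mutants only. Pcdh15, a part of the links between hair cell stereocilia, stood at 2.351, 2.09 and 2.06 CPM in controls, at 2.74, 2.07 and 2.18 CPM in Fzd3 mutants and at 1.65, 1.54 and 1.52 CPM in Celsr3 mutants. Here the Celsr3 mutants were apart, below all other libraries. The mutants differed by 0.44 (limma adjusted p = 0.0301), which was lost without Fzd3 mutant replicate 1 or any Celsr3 mutant library, at 0.0501 to 0.119. Pcdh20 stood at 6.40, 2.96 and 6.25 CPM in controls, at 8.34, 7.43 and 6.53 CPM in Fzd3 mutants and at 5.59, 3.32 and 3.29 CPM in Celsr3 mutants. Fzd3 mutants were highest, and control replicate 2 lay with the low Celsr3 mutants. The mutants differed by 0.83 (limma adjusted p = 0.0340), lost without Fzd3 mutant replicate 1 or 2 or Celsr3 mutant replicate 2 or 4, at 0.0850 to 0.111. Pcdh12, a protocadherin of blood vessels, was higher by 0.34 in Fzd3 mutants without passing (limma adjusted p = 0.0534), and passed without Celsr3 mutant replicate 1 (0.0345), with only the 2 groups in the fit (0.0487) and in the ordinary test per gene (0.0485).

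**Figure D4:**
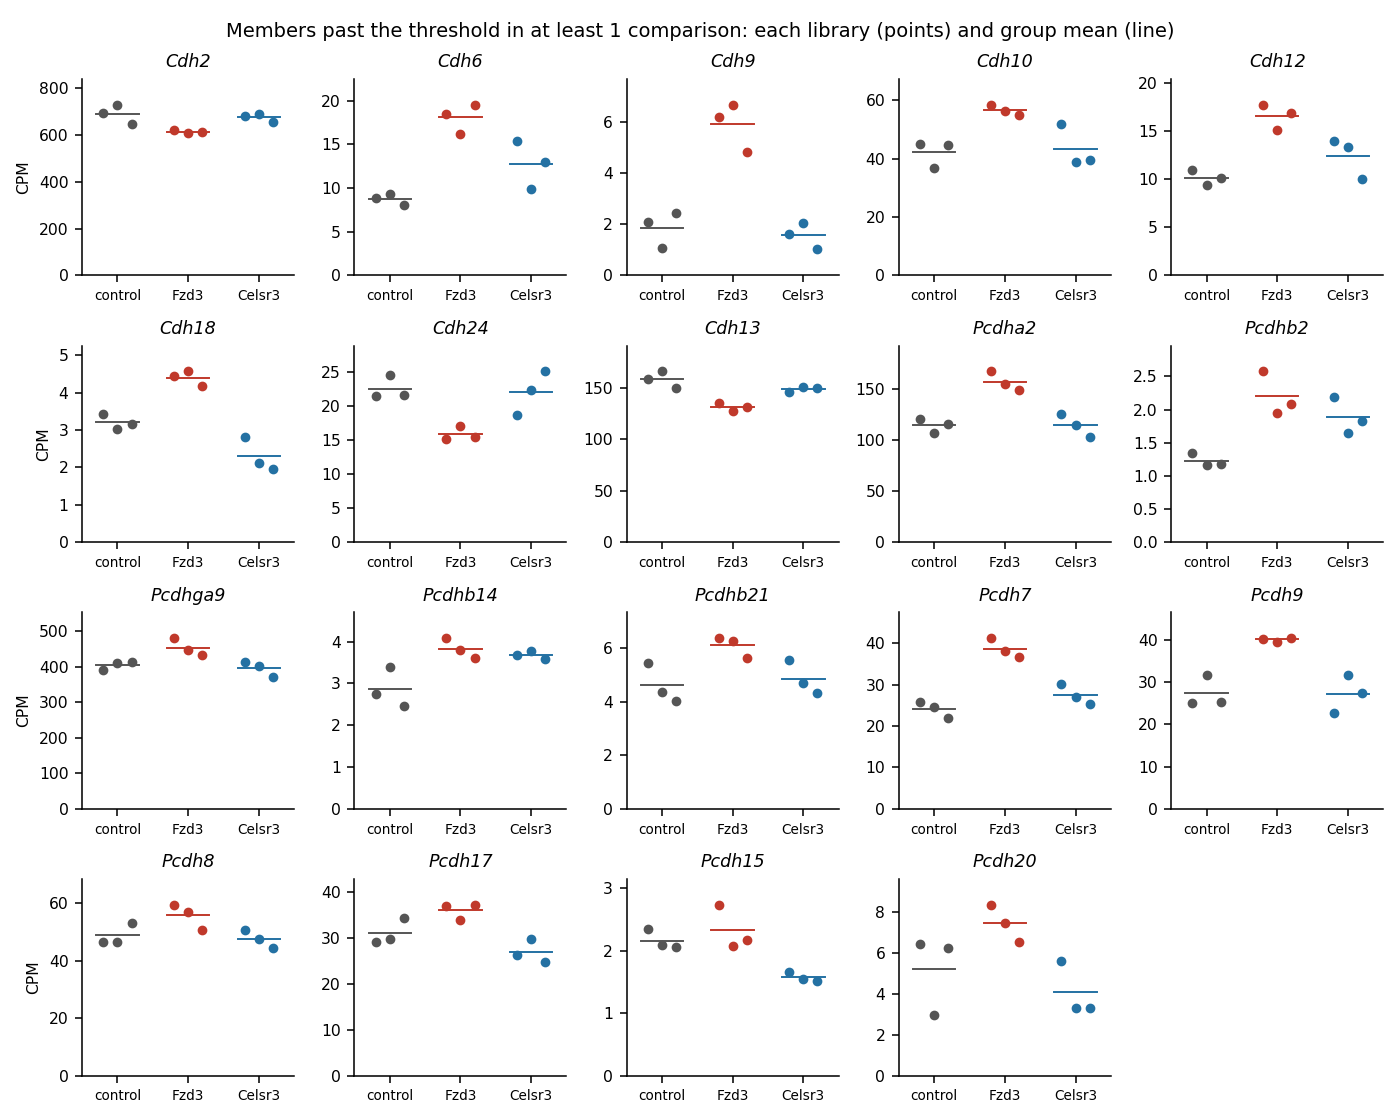
CPM (vertical axes, from 0) of the 19 members that passed in at least 1 of the 3 comparisons, each library as a point and each genotype's mean as a line. Cdh9 lies at 4.85 CPM or more in Fzd3 mutants and at 2.43 CPM or less elsewhere, while Cdh18 separates all 3 genotypes.

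None of the 4 giant cadherins passed against control in the limma fit, where 29.8% of all genes did in Fzd3 mutants and 0.307% in Celsr3 mutants. At an unadjusted p under 0.05 there were 0 of the 4 in either mutant, beside 6067 and 800 of all 14670 genes. Dchs1, the ligand of Fat4 and the giant with the highest level per length, stood at 194, 250.4 and 208 CPM in controls, at 202, 173 and 213 CPM in Fzd3 mutants and at 236, 242 and 211 CPM in Celsr3 mutants. All groups overlapped. Differences in Fzd3 mutants ranged from -0.22 for Fat4 (limma adjusted p = 0.131, or 0.0458 without Fzd3 mutant replicate 3) to 0.11 for Fat1, and those in Celsr3 mutants from -0.06 to 0.09. Between the mutants Fat4 passed without control replicate 2 (limma adjusted p = 0.0403) or Fzd3 mutant replicate 3 (0.0233), and Dchs1 without control replicate 2 (0.0429).

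Compared directly, the mutants differed in 16 of the 53 members, 30.2%, against 29.6% of all listed genes. In Fzd3 mutants 13 were higher than in Celsr3 mutants (24.5% of members against 15.3% of all genes) and 3 lower (5.7% against 14.3%). The 13 were Cdh6, Cdh9, Cdh10, Cdh12, Cdh18, Pcdha2, Pcdhga9, Pcdh7, Pcdh8, Pcdh9, Pcdh15, Pcdh17 and Pcdh20, and the 3 were Cdh2, Cdh13 and Cdh24. Without Celsr3 mutant replicate 4, the library with the meningeal markers, 9 members passed, while the count over all genes went from 4346 to 3143 of 14670, and Cdh10, Cdh12, Cdh2, Pcdh15, Pcdh20, Pcdh8 and Pcdhga9 were lost (limma adjusted p between 0.0609 and 0.146). The count was 10 without Celsr3 mutant replicate 2 and 8 without Fzd3 mutant replicate 1 (3200 and 2971 of all genes). Without Celsr3 mutant replicate 1 it was 18 (3869 of all genes), with Pcdh10, Pcdhb22, Pcdhb3 and Pcdhb9 added (limma adjusted p = 0.00771, 0.0234, 0.0368 and 0.0359) and Cdh2 and Pcdh15 lost (0.107 and 0.0501). Cdh9, Cdh18, Cdh24, Cdh13, Pcdh7, Pcdh9, Pcdh17 and Pcdha2 passed without each library in turn. With a replicate block 10 of the 16 were lost (adjusted p between 0.0541 and 0.237), among them Cdh6, Cdh12, Cdh13 and Pcdh17. In the ordinary test per gene 11 were lost (0.0551 to 0.159), among them Cdh6, Cdh24, Pcdh9 and Pcdha2. The count over all genes also fell, from 4346 to 2101 with the block and to 2006 in the ordinary test. Cdh6 was lost without Fzd3 mutant replicate 1 or 3 or Celsr3 mutant replicate 2 (limma adjusted p between 0.0534 and 0.0616). Against control, leaving out Celsr3 mutant replicate 4 kept the counts of 15 in Fzd3 mutants, 14 of them shared, and 0 in Celsr3 mutants.

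Cadherin genes are often long. The members outside the clusters had a median genomic span of 149 kb (n = 30), beside 22.1 kb for the 14421 matched genes. Of all genes spanning over 100 kb 26.9% rose in Fzd3 mutants, against 13.1% of shorter genes. Among the members outside the clusters 7 of 21 long ones rose (33.3%) and 0 of 9 shorter ones. Between the mutants 8 of 21 long and 3 of 9 shorter ones were higher in Fzd3 mutants (38.1% and 33.3%, beside 27.0% and 13.4% of all genes). The 3 shorter ones, Pcdh8, Pcdh17 and Pcdh20, were lost with a replicate block and in the ordinary test per gene. Whether the split differs between these comparisons was not tested. The 7 that rose against control are the 5 type II cadherins of chromosome 15, Pcdh7 and Pcdh9. The part of gene length in these differences was not tested. Of the members on chromosome 14 with Fzd3, Cdh24 lies 10.6 Mb, Pcdh8 14.5 Mb, Pcdh17 19.2 Mb, Pcdh20 23.2 Mb and Pcdh9 27.8 Mb from it, and Fat3 is the member on chromosome 9 with Celsr3, 92.3 Mb away. Every one of these chromosome 14 members passed between the mutants, where 29.6% of all listed genes did. Cdh24 was lower and the rest were higher in Fzd3 mutants. The share over all genes of chromosome 14 is not given here. Flanking DNA of the mutated strain cannot be told apart from the mutation at such sites in this mixed background.

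Genes that act with cadherins were taken from lists that were chosen with earlier results of these data known. Of 17 listed catenins and junction genes, 4 rose (23.5%, beside 15.0% of all genes) and 3 fell (17.6%, beside 14.8%) in Fzd3 mutants, and 0 passed in Celsr3 mutants in the limma fit. Ctnnb1, the catenin that binds the tail of classical cadherins, fell from 1212 ± 25.8 to 1005 ± 33.7 CPM (SD, n = 3 each), a difference of -0.27 (limma adjusted p = 0.000568). Ctnna1, its link to actin in progenitors, fell from 128 ± 2.104 to 97.9 ± 5.87 CPM, and the scaffold gene Magi1 from 99.4 ± 2.56 to 80.9 ± 1.58 CPM. In these 3 genes, as in Cdh2, all Fzd3 mutant libraries were below all controls. Pkp4, a catenin relative, rose from 86.3 ± 4.93 to 112 ± 8.39 CPM, and Lin7c from 206 ± 7.82 to 237 ± 6.92 CPM, both lost in the ordinary test per gene (adjusted p = 0.0584 and 0.0504). Jup (0.25, limma adjusted p = 0.00633) and Pvrl3 (0.24, limma adjusted p = 0.0191) also rose, with no overlap with controls. These last calls were not recomputed under the alternatives. The remaining 10 genes did not pass, among them the catenin genes Ctnna2 (-0.01) and Ctnnd1 (-0.02).

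Among 15 listed genes known from cohesin, CTCF and chromatin control of the clustered protocadherins, 7 fell (46.7%, beside 14.8% of all genes) and 0 rose in Fzd3 mutants, and 0 passed in Celsr3 mutants. The cohesin subunit gene Rad21 stood at 293 CPM in each control library and at 249, 254 and 253 CPM in Fzd3 mutants, a difference of -0.22 ± 0.0334 SE (limma adjusted p = 0.000900). Stag1 (-0.20), Smc1a (-0.22), Smchd1 (-0.18) and Wiz (-0.21) were lower with no overlap, Wiz losing its call without control replicate 2 (limma adjusted p = 0.0692) or Fzd3 mutant replicate 2 (0.0775). Of these named genes, Smc1a (adjusted p = 0.0543), Smchd1 (0.0705) and Wiz (0.143) were lost in the ordinary test per gene. The genes that fell but are not named here were not recomputed against control under the alternatives. Of the 15 listed genes 8 did not pass, and the relation of the list to the values of Pcdha2 and Pcdhga9 was not tested.

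Of 16 partners of protocadherins inside the cell, 2 rose (12.5%, beside 15.0% of all genes) and 1 fell (6.2%, beside 14.8%) in Fzd3 mutants. Nckap1, a subunit of the WAVE complex that delta-2 protocadherins bind, was lower in both mutants, at 491, 460.4 and 467 CPM in controls, 355, 358 and 355 CPM in Fzd3 mutants and 407, 391 and 384 CPM in Celsr3 mutants. The groups did not overlap. Differences from control were -0.41 ± 0.0387 SE (limma adjusted p = 4.56e-05) and -0.26 ± 0.0387 SE (limma adjusted p = 0.0114). The second was lost without control replicate 1, Celsr3 mutant replicate 2 or Celsr3 mutant replicate 4, at 0.0579 to 0.0737. It was also lost with only these 2 groups in the fit (0.0511), with a replicate block (0.312) and in the ordinary test per gene (0.512). Ptk2b, a kinase that clustered protocadherins restrain, rose from 3.89 ± 1.40 to 12.5 ± 1.55 CPM in Fzd3 mutants (1.62, limma adjusted p = 0.000642), was lost in the ordinary test per gene (adjusted p = 0.0517) and lies 0.891 Mb from Fzd3. Abi2, another WAVE subunit, rose by 0.25 (limma adjusted p = 0.00216), and Wasf1 passed between the mutants only (0.19, limma adjusted p = 0.0119), which was lost without Fzd3 mutant replicate 1 (0.0546) or Celsr3 mutant replicate 4 (0.0501), with a replicate block (0.0968) and in the ordinary test per gene (0.0906).

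Of 10 Fat and Dachsous partners, 4 fell (40%, beside 14.8% of all genes) and 1 rose (10%, beside 15.0%) in Fzd3 mutants, and 0 passed in Celsr3 mutants in the limma fit. Yap1, the growth regulator that Fat4 restrains, fell from 26.6 ± 2.103 to 14.8 ± 1.66 CPM (-0.82 ± 0.107 SE, limma adjusted p = 0.000311). Mpdz (-0.33), Enah (-0.31) and Wwtr1 (-0.32) were lower and the kinase gene Lats1 (0.19) higher. Wwtr1 lost its call without control replicate 1 or 2 or Fzd3 mutant replicate 1 or 2 (limma adjusted p between 0.0659 and 0.0996), and Lats1 without control replicate 1 or 3 or Fzd3 mutant replicate 3 (0.0562 to 0.0674). In the ordinary test per gene Mpdz, Enah, Lats1 and Wwtr1 were lost (adjusted p between 0.0624 and 0.123), and Yap1 was kept.

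Of 10 listed further genes of the cadherin superfamily, 3 rose and 1 (Celsr1) fell in Fzd3 mutants, beside 15.0% and 14.8% of all genes. In Celsr3 mutants 1 rose and 1 fell, the latter being the mutated gene Celsr3 itself, where 0.307% of all genes passed. Clstn2, a calsyntenin of synapses, was higher in both mutants, with 114, 115 and 102 CPM in controls, 183, 171 and 194 CPM in Fzd3 mutants and 159.7, 171 and 155 CPM in Celsr3 mutants. All mutant libraries were above all controls. The differences were 0.73 ± 0.0626 SE (limma adjusted p = 2.31e-05) and 0.55 ± 0.0626 SE (limma adjusted p = 0.00141), and Clstn2 lies 10.8 Mb from Celsr3. The second was lost in the ordinary test per gene (adjusted p = 0.427). Clstn3 rose by 0.44 in Fzd3 mutants (limma adjusted p = 0.00531), which was lost in the ordinary test per gene (adjusted p = 0.0907). The other that rose, the desmosomal cadherin gene Dsc3, lies in the filtered table only through its values in Fzd3 mutants, so its call and its part in the count carry no weight. It was at 3.02, 1.23 and 1.24 CPM in Fzd3 mutants and at 0.401 to 0.668 CPM in the other 6 libraries.

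**Figure D5:**
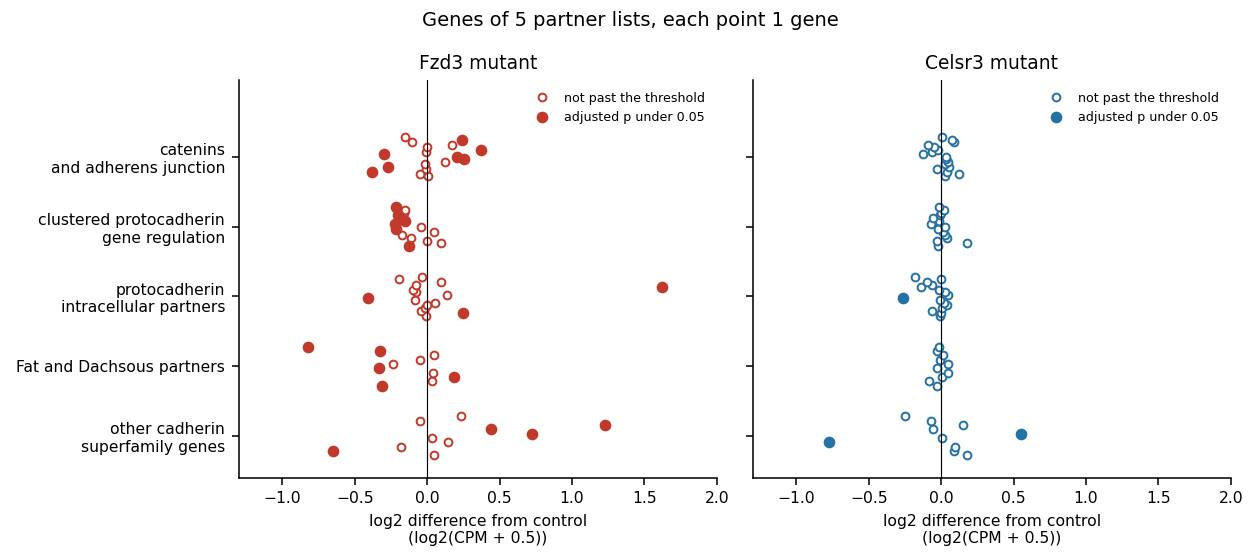
Log2 difference from control (horizontal axis) of the genes of 5 partner lists, 1 point per gene, in Fzd3 mutants (left) and Celsr3 mutants (right), with filled points past the threshold. The list of clustered protocadherin gene regulation has 7 filled points below 0 and none above in Fzd3 mutants, and Nckap1 and Clstn2 are filled on both sides, with Celsr3 itself at -0.78 on the right.

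Markers of cell types also moved in Fzd3 mutants, and their part in the differences of the members was not tested. The 9 dorsal cortex markers used here all fell. Pax6, of radial glia, fell from 76.9 ± 5.34 to 47.0 ± 4.15 CPM and Eomes, of intermediate progenitors, from 178 ± 15.5 to 113 ± 16.1 CPM (SD, n = 3 each). Of 6 endothelial markers, Cldn5 and Kdr rose, and the list, led by Kdr, summed to 91.7, 94.7 and 93.5 CPM in controls, 124, 124 and 112 CPM in Fzd3 mutants and 102, 89.1 and 132 CPM in Celsr3 mutants. Of 5 microglial markers, Csf1r and Trem2 rose, and the list, led by Csf1r, summed to 28.7, 34.1 and 32.0 CPM in controls, 50.5, 48.6 and 34.7 CPM in Fzd3 mutants and 32.7, 35.4 and 42.1 CPM in Celsr3 mutants. In the other lists 1 of 8 ventral telencephalic (Ebf1), 3 of 5 thalamic (Lhx2, Lhx9 and Tcf7l2) and 1 of 6 red blood cell markers (Hbb-y) fell, and 0 of 5 meningeal markers passed. Of all genes 15.0% rose and 14.8% fell, and the 12.5% of ventral and 16.7% of red blood cell markers are near the latter. Lhx2 stood at 185 ± 14.5 CPM in controls, against 2.25 ± 0.621 CPM for Lhx9 and 4.59 ± 0.775 CPM for Tcf7l2. Whether Lhx2 marks thalamus in this tissue was not tested. In Celsr3 mutants 0 markers of these lists passed against control, where 0.307% of all genes did.

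Markers also moved with the direct comparison of the mutants, and their part in it was not tested. All 9 dorsal cortex markers used here were lower in Fzd3 than in Celsr3 mutants. Of the 8 ventral telencephalic markers Gad1, Gad2 and Lhx6, known from inhibitory neurons, were higher and Ebf1 lower, and the list, led by Dlx1, summed to 225, 227 and 251 CPM in controls, 268, 249.8 and 213 CPM in Fzd3 mutants and 228, 197 and 183 CPM in Celsr3 mutants. Gad1 stood at 42.7 ± 6.51 CPM in Fzd3 mutants and at 29.1 ± 4.39 CPM in Celsr3 mutants (SD, n = 3 each), a difference of 0.54 (limma adjusted p = 0.0146). In the other lists Rora (thalamus list), Kdr (endothelium) and Aif1 (microglia) were higher, and 0 of 5 meningeal markers passed. Lower were Hbb-y (red blood cells) and Lhx2, which is in the thalamus list with the limit given above. Of all genes 15.3% were higher and 14.3% lower.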

How the data were processed

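The authors deposited CPM values for each gene and library. The submitters' processing notes name FastQC, TopHat, Bowtie, TopHat2, Cufflinks 2.1.1 and edgeR 2.12, with the builds GRCm38 and GRCh37. Columns summed to between 990141 and 1012199 CPM, and every value was a whole multiple of the step of its column (within 0.1 of a step). Genes were compared in R 4.3.3 with limma 3.58.1 (trend) on log2(CPM + 0.5). The filter, a mean of 0.5 CPM or more, kept all 14670 genes, with Benjamini-Hochberg adjustment and no covariates. The fit was tested on simulated data. Tables and figures were made in Python 3.11.15 (pandas 2.3.3, numpy 2.4.6, matplotlib 3.10.9). Symbols were matched to GENCODE M21 on GRCm38, 13786 by symbol and 635 by an older one, for positions and union exon lengths. Promoter sequences are from RefSeq. The authors' use of strand is not given in the sources used here. Named were all members past the threshold in at least 1 comparison, the member of each class with the highest level per length, the Celsr genes and up to 5 genes of each partner list by adjusted p. Cdh4, Cdh7, Cdh11, Cdh20, Cdh22, Fat1, Fat3, Fat4, Pcdh1, Pcdh10, Pcdh11x, Pcdh12, Pcdh18, Pcdh19, some Pcdhb genes and the markers named were added after their values were seen. So were Jup, Pvrl3, Ctnna2 and Ctnnd1 of the junction list. The members and lists were chosen with earlier results of these data known. Of the dorsal cortex list 1 marker is not reported here. Taz, in the annotation the symbol of tafazzin, was taken out of the Fat and Dachsous list after its values were seen. No column was left unused.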

Additional observations from a re-analysis of the deposited data

How the results depend on the processing

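The counts of members past the threshold were recomputed under 19 alternatives, of which limma with weights from reads was chosen after seeing the data, while the planned edgeR test on recovered reads was not run. Against control, the count in Fzd3 mutants was 15, lay between 10 and 16 with all libraries kept, and between 9 and 16 with 1 left out. In Celsr3 mutants the count was 0, and with 1 library left out it lay between 0 and 1. Between the mutants the count of 16 lay between 8 and 18 with 1 library left out. With only the 2 groups compared in the limma fit it was 16. It was 5 with an ordinary test per gene, on these 2 groups with each gene's own variance, and the cause was not tested. In that test the count over all genes went from 4346 to 2006 between the mutants, and from 4366 to 1895 in Fzd3 mutants against control. With the replicate number as a replicate block the count between the mutants was 6 (2101 of all genes), in a fit with fewer residual degrees of freedom. Against control it was 12 for Fzd3 mutants (3629 of all genes) and 0 for Celsr3 mutants. Celsr3 mutant replicate 4 is the only library with its number, so the block also takes this library out of the comparison of genotypes. Deviations of libraries with the same number in different genotypes correlated between -0.199 and 0.192, and the numbers were not used as pairs elsewhere. Recomputed were 1613 values, for members that passed and for up to 5 calls of each partner list in each comparison. They also cover Fzd3 in Fzd3 mutants and Cdh6, Cdh18, Cdh22, Pcdhb2 and Pcdh15 in Celsr3 mutants, but no markers. Of the 1613 values, 0 changed direction, 182 no longer passed and 2 (Cdh6 and Fzd3) newly passed. Most of these genes were taken because they passed, so the values say little about gains. Members outside these values that newly passed are named in the paragraphs above. Of the 15 calls in Fzd3 mutants 7 passed in every alternative, and of the 16 between the mutants 3 did. The matching counts for all genes are not given here, so these counts cannot be read as a trait of the members. With 3 libraries per genotype, small differences of low genes may be missed, and a member that did not pass is not shown to be unchanged.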
